A study of Mus musculus with 5 samples.

Results

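H3K4me3 outside promoters was examined at the places where the peak list of Cxxc1-deficient thymocytes held a peak and the list of WT thymocytes held none. These regions were defined by the peak lists themselves. Listed 200-bp windows with no more than 2 windows missing between them were taken as 1 peak, and an autosomal peak of the deficient list was kept when it summed to at most 10 RPM (tags per 1000000 mapped tags), lay clear of every base within 1 kb of a protein-coding transcription start site (TSS), and shared no base with a WT peak. The rule found 1395 regions among the 2979 peaks of the deficient list, and these are called the deficient-only regions here.

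The series compared Cxxc1 and H3K4me3 ChIP-seq between WT and Cxxc1-deficient CD4+CD8+ (DP) thymocytes, the intermediate stage at which thymocytes carry both coreceptors. Per the study's methods, WT mice were Cxxc1 fl/fl, and deficient mice were Cxxc1 fl/fl carrying an hCD2 Cre transgene, which acts from the early thymocyte stages onward and also in other immune cells. The sample titles name a knockout whereas the genotype label of the same samples names a heterozygote. The floxed allele was made in embryonic stem cells of another strain, and the floxed mice were backcrossed onto C57BL/6 for 5 generations. Mice were 3 to 4 weeks old unless the methods specified otherwise, and whether cells of several mice were pooled is not given in the sources used here. Of the 5 samples, 3 processed files were analysed, namely the WT and deficient H3K4me3 lists with 1 library each and a Cxxc1 peak list whose name carries no genotype and which the study's methods describe as binding in WT cells. The Cxxc1 promoter itself had a peak in the WT list and none in the deficient list, which is not a check of the deleted exons. With 1 library per genotype there was no replicate check and no test between genotypes, so every difference in this report compares 2 libraries and not the conditions.

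H3K4me3 is laid down by SET1 and MLL methyltransferase complexes and is best known from active promoters, above all those within CpG islands. Cxxc1, also called CFP1, carries a CXXC zinc finger that binds CpG dinucleotides free of methylation, and it is a subunit of the SET1 complexes. Away from promoters, weaker H3K4me3 is found at some enhancers and at unannotated start sites, where H3K4me1 is the more usual mark.

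The sequences of 7 windows are shown because they span the kinds of place the regions came from, namely the strongest regions, the strongest regions at CpG islands, the strongest region at a Cxxc1 peak and the strongest region at a T lineage gene. Each is the 200-bp window of highest RPM within its region (the leftmost where windows tied), read from the plus strand of NCBIM37 (mm9), 5′ to 3′, with CpG dinucleotides in capitals. The windows of the 2 strongest regions hold 5 and 1 CpG, and those of the regions at CpG islands hold 5 and 6. The windows of the region at the Cxxc1 peak and of the region at Dntt hold 1 each. Overlap with an island or a Cxxc1 peak was scored on the whole region. Whether the printed window itself lies inside the island or the Cxxc1 peak was not determined.
chr2:181665201-181665400 (among the strongest, 3.8 RPM): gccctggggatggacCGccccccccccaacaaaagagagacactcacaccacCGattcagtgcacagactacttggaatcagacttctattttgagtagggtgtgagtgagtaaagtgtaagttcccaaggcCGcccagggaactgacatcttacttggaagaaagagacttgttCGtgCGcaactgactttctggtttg
chr3:56379401-56379600 (among the strongest, 2.3 RPM): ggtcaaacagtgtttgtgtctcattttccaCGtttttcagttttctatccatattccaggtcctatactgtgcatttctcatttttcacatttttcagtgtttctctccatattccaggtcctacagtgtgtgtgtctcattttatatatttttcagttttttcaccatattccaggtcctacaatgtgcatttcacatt
chr11:108162601-108162800 (among the strongest, 0.4 RPM): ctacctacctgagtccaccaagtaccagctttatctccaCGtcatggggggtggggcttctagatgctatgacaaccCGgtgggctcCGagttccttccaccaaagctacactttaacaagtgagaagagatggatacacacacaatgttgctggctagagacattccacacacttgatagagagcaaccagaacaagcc
chr9:103325801-103326000 (at a CpG island, 0.5 RPM): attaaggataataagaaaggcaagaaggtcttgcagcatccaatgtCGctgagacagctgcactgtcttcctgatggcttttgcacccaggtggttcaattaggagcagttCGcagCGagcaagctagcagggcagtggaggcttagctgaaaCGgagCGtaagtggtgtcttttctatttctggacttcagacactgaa
chr15:82818401-82818600 (at a CpG island, 0.5 RPM): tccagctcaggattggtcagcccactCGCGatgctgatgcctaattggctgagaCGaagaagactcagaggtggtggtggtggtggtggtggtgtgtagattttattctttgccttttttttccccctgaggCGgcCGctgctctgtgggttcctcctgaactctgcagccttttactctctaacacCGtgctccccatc
chr14:30985201-30985400 (at a Cxxc1 peak, 0.4 RPM): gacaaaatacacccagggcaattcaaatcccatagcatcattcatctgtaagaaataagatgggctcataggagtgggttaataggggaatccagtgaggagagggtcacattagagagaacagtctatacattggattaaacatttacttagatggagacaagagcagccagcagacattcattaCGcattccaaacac
chr19:41097601-41097800 (upstream of Dntt, 0.5 RPM): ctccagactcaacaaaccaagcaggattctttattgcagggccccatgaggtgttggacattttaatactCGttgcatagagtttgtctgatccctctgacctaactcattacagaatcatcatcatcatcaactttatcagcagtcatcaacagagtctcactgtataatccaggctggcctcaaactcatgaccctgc

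**Figure D1:**
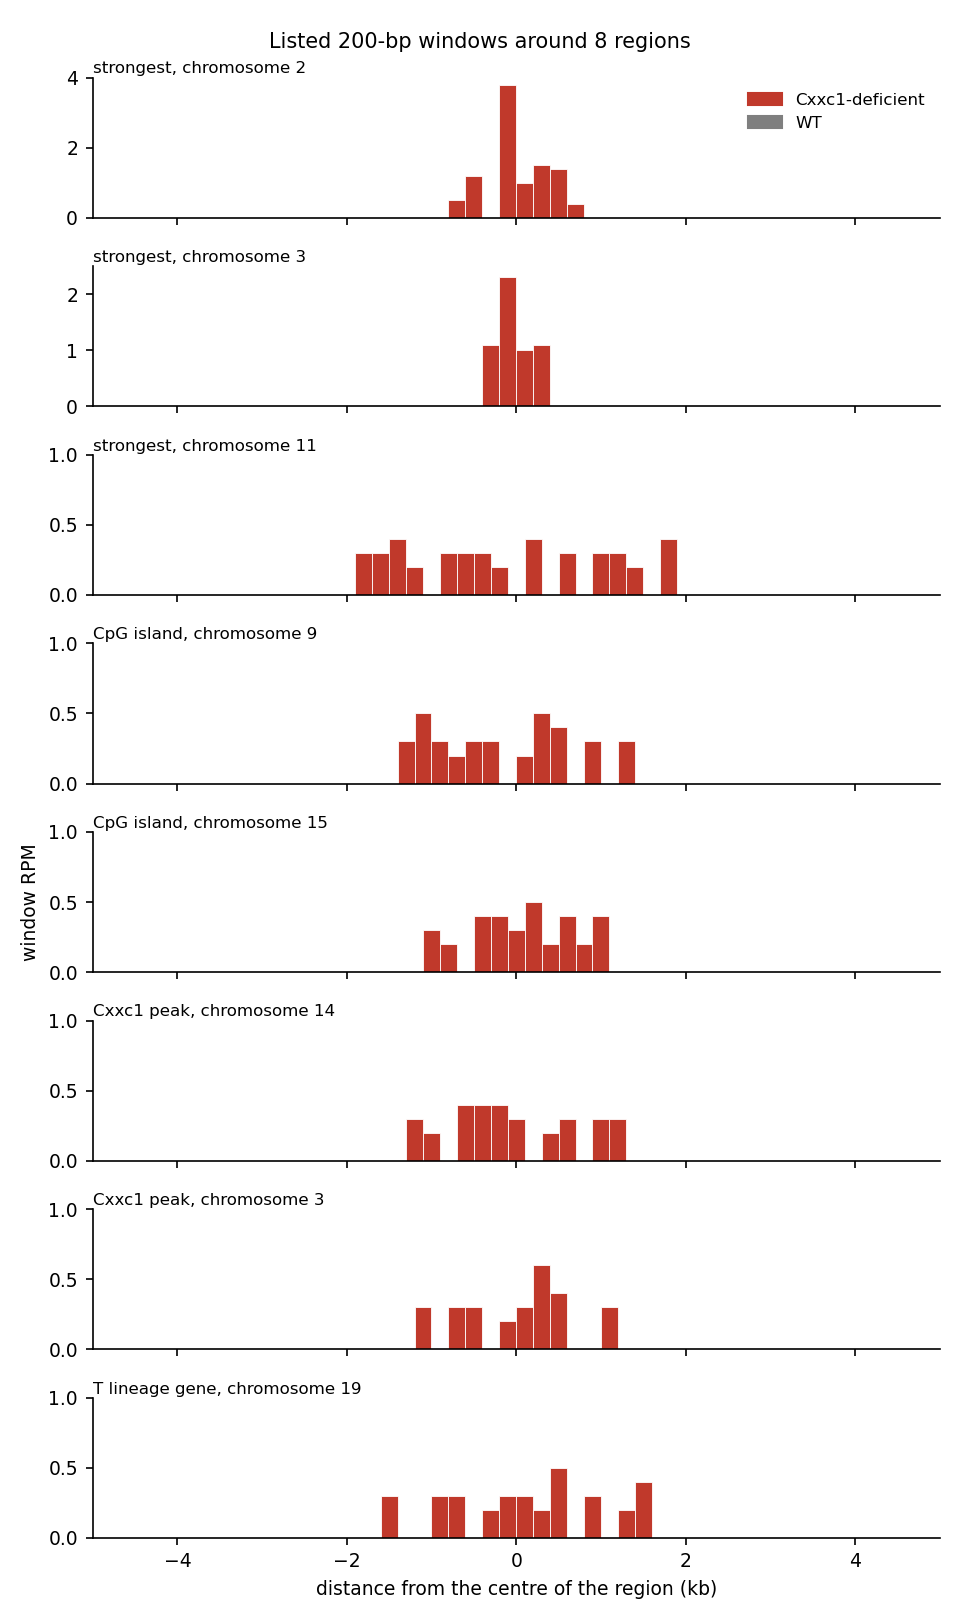
RPM of each listed 200-bp window (vertical axis, scale differs between panels) against distance from the centre of the region in kb, for 8 deficient-only regions, with deficient windows in red and WT windows in grey. No WT window was listed within the 5 kb shown on either side, and the 2 uppermost regions reached 3.8 and 2.3 RPM in a window whereas the other 6 did not pass 0.6 RPM.

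The deficient-only regions were weak. Their summed H3K4me3 ran from 1.1 to 9.8 RPM with a median of 1.9 RPM and quartiles of 1.7 and 2.2 RPM, which at an estimated 0.106 RPM per tag is a median of 19 tags. A region spanned 200 to 3800 bp, with a median of 1600 bp and 5 listed windows, and its strongest window had a median of 0.5 RPM. Only 69 regions (4.95%, 95% Wilson interval 3.93 to 6.21) reached 3 RPM, 4 reached 4 RPM and 2 reached 5 RPM. All intervals here cover counting error only, and regions of 1 library are not replicates of a condition.

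The other deficient peaks outside promoters, those that did share bases with a WT peak (426 peaks), had a median of 2.1 RPM, and 17.1% of them (13.9 to 21.0) reached 3 RPM. The 7251 WT peaks outside promoters that met no deficient peak also had a median of 2.1 RPM, with 16.3% (15.4 to 17.1) at 3 RPM or more. The interval of the deficient-only regions thus lay below both others. RPM is a share of the tags of each library, so equal RPM in the WT and deficient lists need not mean an equal amount of H3K4me3. The study measured lower total H3K4me3 in deficient than in WT DP thymocytes. The width medians were 1600 bp in all 3 lists, and the mean listed window had a median of 0.35 RPM in the deficient-only regions, 0.35 RPM in the shared peaks and 0.36 RPM in the WT-only peaks. The lower sums therefore went with fewer listed windows per peak, a median of 5 against 6 and 6. Of the 1821 deficient peaks outside promoters within the RPM limit, 76.6% had no WT peak, against 37.6% of the 1140 at promoters and 61.6% of all 2961. The rule used this contrast, so these percentages describe the lists and nothing is read from them.

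**Figure D2:**
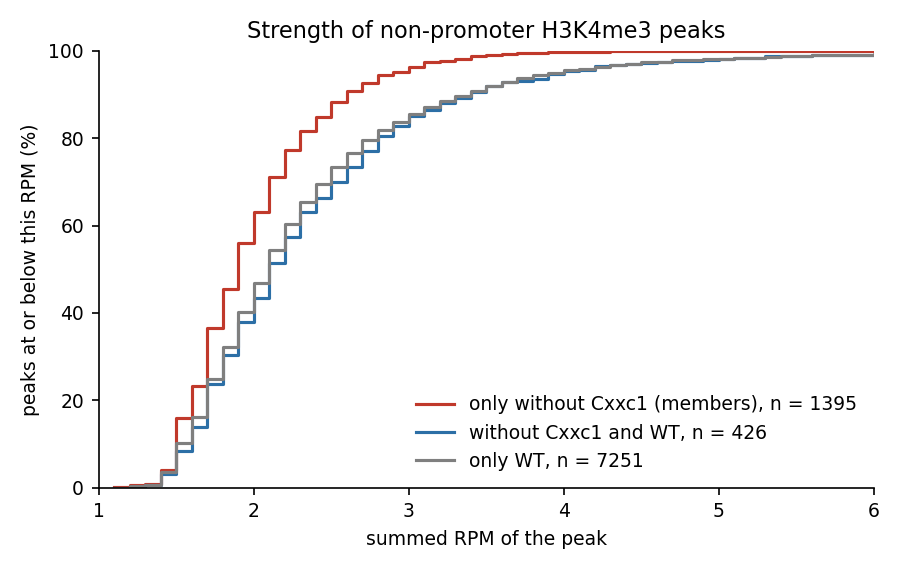
Cumulative share of non-promoter H3K4me3 peaks (vertical axis, %) at or below a summed RPM (horizontal axis, shown to 6 RPM) for the deficient-only regions, the deficient peaks shared with WT and the WT-only peaks. The red curve of the deficient-only regions lies above the other curves from 1.5 to 5 RPM because fewer of its regions were strong, and the other curves nearly coincide.

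The 10 strongest regions were all intergenic or intronic, as were most of the 1395 regions (44.0% and 51.6%). The strongest region, at chr2:181664601-181666200, summed to 9.8 RPM with 3.8 RPM in 1 window, lay 60.4 kb upstream of Gm14496 and was 64.6 kb from the nearest WT peak. In its strongest window 27.2% of 32-base stretches occurred elsewhere in the genome, in up to 4 copies. The next, at chr3:56379201-56380000, summed to 5.5 RPM over 800 bp, and lay 315 kb from the nearest coding TSS and 1351 kb from the nearest WT peak. Of the 32-base stretches of its strongest window, 8.88% occurred more than once in the genome, in up to 7 copies. No other of the 10 strongest regions had a window above 0.8 RPM.

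The third, at chr18:70759201-70762800, summed to 4.3 RPM over 3600 bp in an intron of Mbd2, which encodes a protein that binds methylated CpG. The fourth, at chr11:108162201-108166000, summed to 4.2 RPM over 3800 bp in an intron of Prkca, the gene of protein kinase C alpha, and with 14 windows it had the most of all the regions. Both genes had a promoter peak in the WT and in the deficient list. The 6 that followed had 3.7 to 3.9 RPM. They lay in introns of Klf12, a zinc finger repressor, of Arhgap25, a Rac GTPase-activating protein of blood cells, of the sialyltransferase gene St6gal1 and of Osbpl3, an oxysterol-binding protein gene, and in intergenic DNA 20.3 kb from the TSS of Rab44 and 2.89 kb upstream of the homeobox gene Gsx2. Of the 10 strongest regions none overlapped a CpG island or a Cxxc1 peak. Over all regions the shares were only 3.30% and 1.22%, so nothing is read from their absence among 10. The widest regions were the Prkca one, a 3800 bp region of 3.4 RPM in an intron of the tyrosine phosphatase gene Ptpn1, and the Mbd2 one.

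The members nearest each limit of the rule were as follows, given as a description. Inside the RPM limit the nearest were the regions of 9.8 and 5.5 RPM described above, and outside it were 2 peaks with no other reason for exclusion, of 15.9 RPM at chr2:181651801-181654200 and of 21.4 RPM at Sp110. The closest regions to a promoter lay 1012 bp from a TSS of Gm11541 and 1027 bp from one of Gsta4, while peaks 980 bp from Pptc7 and 947 bp from Inpp5k were left out. At the WT limit, 13 regions abutted a WT peak with no base between them, and 29 deficient peaks shared only 200 bases with one and were left out.

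The regions lay in genes more often than their share of the genome. By the midpoint, 720 regions (51.6%, 49.0 to 54.2) were in introns of coding genes, 61 (4.37%, 3.42 to 5.58) in exons and 614 (44.0%, 41.4 to 46.6) in intergenic DNA. Autosomal bases outside promoters were 35.5% intronic, 2.18% exonic and 62.3% intergenic. The shared peaks split almost alike, with 50.7% in introns, 6.34% in exons and 43.0% between genes. WT-only peaks were more often exonic (11.2%) and less often intergenic (36.1%), with intervals apart from those of the deficient-only regions.

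The median distance from a region's midpoint to the nearest coding TSS was 23.3 kb, against 18.3 kb for shared peaks and 17.0 kb for WT-only peaks. Regions more than 50 kb from any coding TSS made up 29.8% (27.5 to 32.3), against 21.1% and 20.1% in the other lists. Regions upstream of their nearest TSS were 40.4% (37.8 to 43.0). The interval for the distant share did not overlap that of either other list. A start site of another gene type was met by 47 regions (3.37%, 2.54 to 4.45), of which 18 involved a lincRNA, 16 a processed transcript, 5 a pseudogene and 5 an snRNA. The strongest of these was a 3.6 RPM region at the lincRNA gene 5830418P13Rik, and the next a 3.5 RPM region at Pisd-ps1, where 62.1% of 32-base stretches of the strongest window were repeated.

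**Figure D3:**
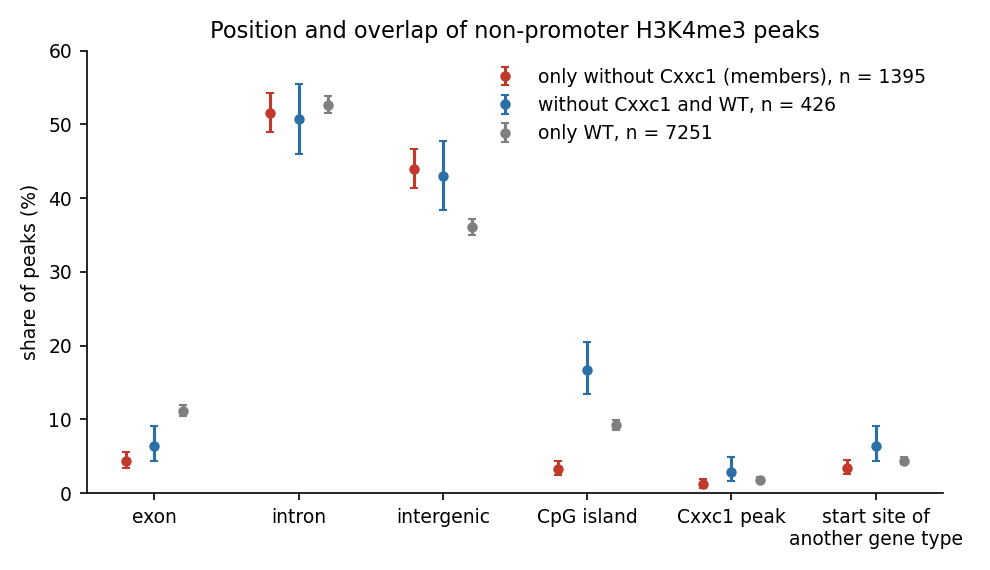
Share of peaks (vertical axis, %) by midpoint position and by overlap with a CpG island, a Cxxc1 peak or a start site of another gene type than protein-coding, for the deficient-only regions, the shared deficient peaks and the WT-only peaks. Bars are 95% Wilson intervals of the counts. The deficient-only regions had the smallest share at these islands of 500 bp or more, 3.30% against 16.7% and 9.25%.

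A smaller share of the regions than of the other peaks met a CpG island, with intervals that did not overlap. A CpG island, taken as 500 bp or more with 55% GC and 0.65 of the CpG its base content predicts, was met by 46 regions (3.30%, 2.48 to 4.37), against 16.7% (13.4 to 20.5) of shared peaks and 9.25% (8.61 to 9.94) of WT-only peaks. Deficient peaks at promoters that had no WT peak met an island in 69.7%. By strength, among regions of 2.5 RPM or more 3.76% (1.92 to 7.23) met an island, against 18.8% (13.2 to 25.9) of shared and 13.7% (12.3 to 15.2) of WT-only peaks of that strength. Among the weakest, of 1.6 RPM or less, the shares were 2.76% (1.46 to 5.16), 11.9% (5.87 to 22.5) and 6.32% (5.06 to 7.86), and there the intervals of the regions and the WT-only peaks overlapped. With a looser definition of 200 bp, 50% GC and a ratio of 0.6, the shares were 23.2% (21.1 to 25.5) of the regions, 42.3% (37.7 to 47.0) of shared and 38.1% (37.0 to 39.3) of WT-only peaks. The divisions by strength and the looser counts in the other lists were chosen after values were seen.

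Intronic regions met an island least often (1.53%, 0.855 to 2.71), intergenic ones in 4.89% (3.44 to 6.89) and exonic ones in 8.20% (3.55 to 17.8). The strongest at an island were the 5830418P13Rik region and a 3.3 RPM region at chr15:82817201-82819400, 35.3 kb from Nfam1, an activating receptor gene of blood cells. They were followed by a 2.8 RPM region 3.40 kb upstream of Srebf1, the gene of a regulator of lipid synthesis, a 2.8 RPM region 81.4 kb from the TSS of Kcnrg and a 2.6 RPM region in an intron of Zcchc2, whose strongest window was 74.0% GC with 26 CpG. The strongest window of the 5830418P13Rik region, printed above, had a GC content of 48.5%.

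The GC content of the regions lay between that of the genome and that of the other peaks. The strongest windows had a median GC content of 49.0% (quartiles 45.0% and 53.0%), against 53.0% in shared peaks, 54.0% in WT-only peaks and 42.0% in all 200-bp windows of the autosomes. They held a median of 3 CpG, as did the windows of both other lists, against 1 in the genome, and 11.3% (9.77 to 13.1) held no CpG, against 6.81% of shared, 6.29% of WT-only and 30% of genomic windows. Windows with at least 10 CpG made up 2.08% (1.45 to 2.97), against 8.22%, 6.99% and 1.02%. The GC median of the regions was 48.5% to 49.5% in each of 4 strength classes, and in the shared peaks it was 52.5% to 53.5%. Regions more than 50 kb from a WT peak had a GC median of 47.0%, and those within 1 kb of one 50.5%.

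Short motifs of factors active in thymocytes were counted in the strongest windows on both strands, as descriptions of letters and not of binding. GGAA, the core bound by ETS factors, stood in 88.9% of windows against 87.5% of all autosomal windows, and CANNTG, the E box, in 69.2% (66.8 to 71.6) against 65.7%. In the shared and WT-only peaks CANNTG stood in 73.7% and 71.5%, and GGAA in 90.1% and 88.9%. TGTGGT, the core bound by RUNX factors, stood in 17.1% (15.2 to 19.2) against 13.9%, and TGAGTCA, bound by AP-1, in 5.16% (4.12 to 6.45) against 3.14%. In the shared and WT-only peaks TGTGGT stood in 15% (11.9 to 18.7) and 16.5% (15.6 to 17.4), and TGAGTCA in 2.58% (1.45 to 4.56) and 4.03% (3.6 to 4.5). AGATAA, bound by GATA factors, stood in 8.03% (6.72 to 9.57) against 13.2%, and in 8.45% and 6.29% of the other lists. The genomic windows were poorer in GC than the regions, which these shares do not take into account. Only 13 regions (0.932%) had a strongest window made mostly of repeated 32-base stretches.

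Overlap with Cxxc1 peaks was rare. Of the 4352 Cxxc1 peaks, 17 regions met one (1.22%, 0.762 to 1.94), against 2.82% (1.62 to 4.86) of shared and 1.85% (1.56 to 2.19) of WT-only peaks, and the intervals overlapped. None of the 17 was at a CpG island, against 3.30% of all regions. Of the 17, 10 were intronic and 7 intergenic, against 51.6% and 44.0% of all regions. These counts are near the shares over all regions, so nothing is read from them. The Cxxc1 peaks involved had 1.3 to 2.7 RPM with a median of 1.8 RPM, against a median of 1.7 RPM for the other Cxxc1 peaks. The strongest region, of 3.1 RPM at chr14:30984601-30987200, lay in an intron of Cacna1d, a calcium channel gene, and its Cxxc1 peak had 2.7 RPM. Others among the strongest were regions of 2.7 RPM 3.22 kb upstream of Them5, of 2.6 RPM 19.7 kb from the TSS of the histone gene H3f3a, and of 2.5 RPM 41.1 kb upstream of Pou2f1.

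Distances from the regions to the nearest WT peak are given without a genomic background. The share of autosomal bases this close to a WT peak was not counted. A WT peak lay within 1 kb of 111 regions (7.96%, 6.65 to 9.50), within 5 kb of 23.7% (21.6 to 26.0), within 10 kb of 34.8% (32.3 to 37.3) and within 50 kb of 70.6% (68.2 to 72.9), with a median distance of 21.0 kb. The deficient promoter peaks without a WT peak had much the same distances, with 8.39% (6.12 to 11.4) within 1 kb and 66.0% (61.4 to 70.3) within 50 kb. A place without a listed WT peak has an unknown WT signal and not a signal of 0, so a WT signal just under the caller's threshold cannot be told apart from none.

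**Figure D4:**
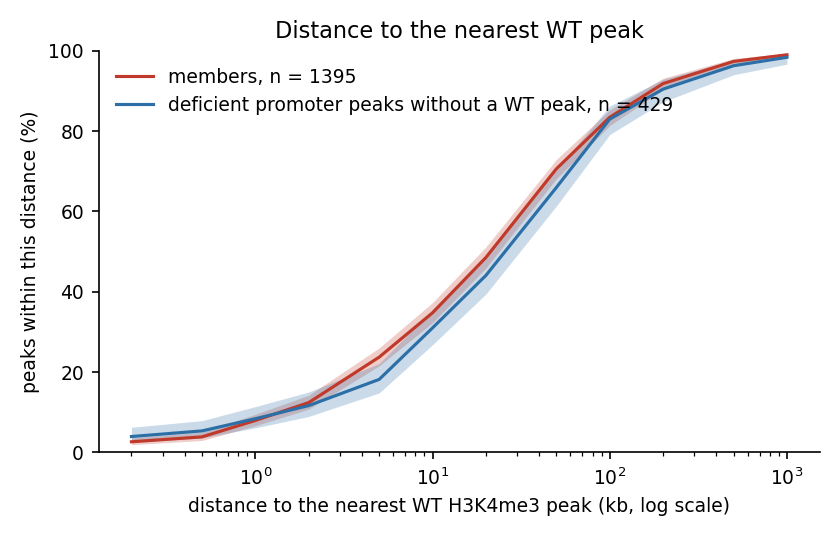
Cumulative share of peaks (vertical axis, %) with a WT H3K4me3 peak within the distance on the horizontal axis (kb, log scale), for the 1395 deficient-only regions (members) and the 429 deficient promoter peaks without a WT peak; bands are 95% Wilson intervals. The curves run close together, and the members reached 70.6% at 50 kb.

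Of the 781 regions inside coding genes, 57.7% (54.3 to 61.2) lay in a gene with a WT promoter peak and 13.6% (11.3 to 16.2) in a gene with a deficient promoter peak. Of all 21410 autosomal coding genes, 32.5% had a WT and 6.10% a deficient promoter peak. These measures are unlike, since the former count regions, so that a gene with several regions counts more than once. The latter count each gene once, and gene length was not taken into account. By combination, the host gene had a promoter peak in WT alone for 367 regions, in both lists for 84, in the deficient list alone for 22 and in neither for 308. Shared peaks lay in a gene with a WT promoter peak in 74.5%, and WT-only peaks in 60.1%. The interval of the regions was below that of the shared peaks and overlapped that of the WT-only peaks.

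The regions were spread over all 19 autosomes. Chromosome 11 held 120 of them, or 9.85 per 10 Mb, and chromosome 3 held 60, or 3.76 per 10 Mb. Per 100 coding genes the range was from 3.48 on chromosome 7 to 9.94 on chromosome 12. The order of the chromosomes thus depended on the scale used. Most regions stood alone: 1077 had no other within 50 kb, 114 groups held 2, 22 groups held 3 and 6 groups held 4. The groups of 4 included the Prkca introns, with regions of 1.4, 3.5, 2.0 and 4.2 RPM over 94.2 kb and 1 WT peak among them. Another covered Thada and Zfp36l2, the latter encoding an RNA-binding protein, with 2.0, 1.5, 3.3 and 1.9 RPM over 62.8 kb and 7 WT peaks among them. The group around Bfsp2 and the group at chr9:46893801-46926800 contained no WT peak.

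**Figure D5:**
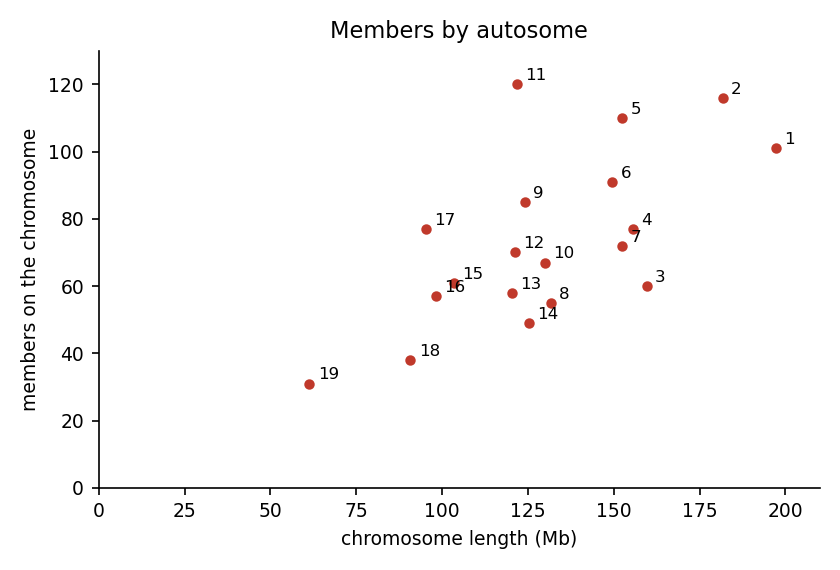
Number of deficient-only regions on each autosome (vertical axis) against the length of the chromosome in Mb (horizontal axis), each point labelled with its chromosome. Chromosome 11 lay highest with 120 regions, and chromosome 3 held 60 although it is longer than chromosome 11.

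By gene body, Mad1l1, which encodes a spindle checkpoint protein, held 5 regions of 1.4 to 2.6 RPM. Cacna1d, Eif4e3, Igf1r, Litaf, Ncoa2, Prkca, Tbc1d22a and Wwox held 4 each. The annotated gene Gm20388 held 6, but its model spans 4435 kb across many other genes. All these genes are long, and long genes held regions more often: 1.05% of genes under 10 kb had a region in the body or the 10 kb upstream, 2.5% of those of 10 to 30 kb, 5.98% of those of 30 to 100 kb, 14.5% of those of 100 to 300 kb and 15.5% of longer ones.

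A larger share of listed T lineage genes than of all coding genes had a region. Of 39 autosomal genes on a list of T lineage factors, receptors and kinases, 11 (28.2%, 16.5 to 43.8) had a region in the body or the 10 kb upstream, against 857 of 21410 coding genes (4.0%). The 39 genes had a median length of 33.0 kb and 25 of them had a WT promoter peak. Of all genes of 30 to 100 kb with a WT promoter peak, 8.10% (6.97 to 9.39) had a region. Several of the 11 are longer, since Runx1, Tcf12, Fyn, Prkcq, Ets1 and Ccr9 each span 100 to 300 kb. Of all coding genes of that length, 14.5% (12.9 to 16.2) had a region. The long genes named were taken from those with a region, and how many of the 39 have that length is not given here. The part of gene length in the contrast with 4.0% was not tested. The same list was prominent in the other peaks too, since 53.8% of its genes had a WT-only peak and 10.3% a shared one, against 16.9% and 1.33% of all genes. The lists were chosen with results of these data known, and the shares describe them without a test.

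The region at a T lineage gene with the highest RPM lay 6.56 kb upstream of Dntt, the gene of terminal deoxynucleotidyl transferase, which adds bases at receptor gene joints. It summed to 3.3 RPM over 11 windows at chr19:41095601-41098800, and neither list had a peak at the Dntt promoter. The nearest WT peak was 64.2 kb away. A region of 1.6 RPM, at chr2:101492401-101493800, lay 3.44 kb upstream of Rag1, which encodes a subunit of the receptor gene recombinase. Rag1 had a promoter peak of 1.7 RPM in the deficient list, no promoter peak in the WT list, and no WT peak within 143 kb of the region. Ets1, the gene of the founding ETS factor, had a region of 2.9 RPM at its 3′ end and one of 1.7 RPM in an intron, and no promoter peak in either list.

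Runx1, the gene of a RUNX factor required in thymocytes, held regions of 2.5 and 2.0 RPM in introns, and the latter overlapped a Cxxc1 peak. Its promoters had peaks in both lists, with 2.6 RPM in the deficient list, and 11 WT peaks lay in the gene. The region in Ccr9, the gene of a chemokine receptor of thymocytes, had 2.4 RPM and lay 127 kb from the nearest WT peak. Ikzf1 (Ikaros) held one of 2.3 RPM and Bcl11b, the T cell commitment factor, one of 2.2 RPM, at chr12:109183001-109184600, among 12 WT peaks of that gene. The regions in Prkcq, Tcf12, Satb1 and Fyn had 2.1, 2.0, 1.5 and 1.5 RPM. Thus some lay in genes rich in WT peaks, and those at Dntt, Rag1 and Ccr9 in genes with none listed in the body or the 10 kb upstream.

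Of 14 genes of earlier thymocyte stages 1 had a region (7.14%, 1.27 to 31.5), against 4.0% of all coding genes, which the interval covers. The gene was Il2ra, of the interleukin-2 receptor alpha chain, with a region of 2.7 RPM in an intron and 109.8 kb from the nearest WT peak. Among 30 genes of T cell receptor signalling 3 had regions (10%, 3.46 to 25.6), an interval that covers the share over all coding genes. The adaptor gene Skap1 had 3, of 1.7, 2.0 and 1.9 RPM, the phosphatase gene Ptprc (CD45) had one of 1.9 RPM and the ubiquitin ligase gene Cblb one of 2.1 RPM. The last of these were 436 and 389.8 kb from the nearest WT peak. Of 16 genes of H3K4 methylation, 1 had a region nearby (6.25%, 1.11 to 28.3), against 4.0% of all coding genes, which the interval covers. The gene was Setd1a, which encodes a catalytic subunit of the SET1 complexes. Its region had 2.1 RPM, lay 2.78 kb upstream of the Setd1a TSS in an exon of Orai3, and was 1.8 kb from the WT promoter peak of 3.8 RPM.

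T cell receptor and immunoglobulin loci together held 3 regions within 1 kb of a gene segment (0.215%, 0.0732 to 0.630), against 0.235% of shared and 0.0276% of WT-only peaks, or 1 and 2 peaks. A region of 2.4 RPM at chr6:41496801-41498600 lay at Trbc2, a constant segment of the T cell receptor beta chain, and was 2.4 kb from a WT peak of 1.8 RPM. Another of 2.0 RPM, at chr6:41507801-41509200, lay at the variable segment Trbv31 and was 13.4 kb from the same WT peak. The third, of 2.9 RPM at chr12:114665601-114667400, lay at segments annotated as immunoglobulin J genes, and a WT peak of 4.1 RPM stood 2.0 kb away. No other region was within 1 kb of an annotated segment.

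Markers of other cell types were examined in the same way. Of 10 B cell genes, 3 (30%, 10.8 to 60.3) had a region, all upstream of the TSS, against 4.0% of all coding genes. They included Pax5, the factor of B cell identity (1.7 RPM, 2.28 kb upstream and at a CpG island), and Ebf1, an early B cell factor (1.9 RPM, 6.12 kb upstream and at a CpG island). No gene of the 11 myeloid, 6 erythroid, 7 NK cell and 10 thymic stroma genes had one. Their intervals reached 25.9%, 39.0%, 35.4% and 27.8%, so each covers the share over all coding genes. A WT-only peak was at 20% of the B cell, 27.3% of the myeloid, 16.7% of the erythroid and 20% of the stroma genes. The NK cell genes had none, and the share over all coding genes was 16.9%. The promoter peaks of the B cell list summed to 6.7 RPM in WT, at Cd79b and Ebf1, and none was listed in the deficient library. For the myeloid list the sums were 2.1 RPM in WT with none in the deficient library, for the erythroid list 3.7 and 1.9 RPM, and for the stroma list 4.7 and 2.3 RPM, while the NK cell list had none in either. The T lineage list summed to 121 RPM over 25 promoters in WT and to 26.5 RPM over 10 in the deficient library, with Cd3e and Cd8a in both and no peak at the Cd4 promoter in either. The part of other cells in the result was not tested.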

How the data were processed

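Chromatin of DP thymocytes was immunoprecipitated for H3K4me3 or Cxxc1 and sequenced as 50-bp reads. Per the study's methods and the submitters' processing notes, reads came from CASAVA 1.8.2, uniquely mapped mm9 reads were kept, and SICER 1.1 called enriched regions. The aligner, the treatment of duplicate reads and which control served H3K4me3 are not given in the sources used here. The authors deposited 200-bp windows of the called regions, each with RPM at 1 decimal. From the steps between the listed values, 1 tag was worth about 0.106 RPM in both H3K4me3 files, so the deficient and WT libraries had about 9440000 and 9460000 mapped tags, and a median region rests on 19 tags.

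Windows were joined into peaks and annotated with the GENCODE vM1 genes of NCBIM37, the assembly that mm9 names. A promoter was a coding TSS with 1 kb either side. Shares carry 95% Wilson intervals (scipy 1.17.1). Python 3.11.15 and numpy 2.4.6 were used. The steps were tested on simulated peaks and sequence. The genome was not marked for repeats, so copies of 32-base stretches were counted instead. Named regions were the 10 of highest RPM, the 3 widest, the 5 strongest at Cxxc1 peaks and at CpG islands, those nearest each limit, those at listed T lineage, early thymocyte, receptor signalling and H3K4 methylation genes, and the genes with the most regions. The B cell genes, start sites and receptor segments were added after their values were seen. The regions and gene lists were chosen with earlier results of these data known. Of 148 list entries, 5 did not match an autosomal gene by symbol. No sequence of chromosome 18 was printed. A chosen sequence window and 2 named regions are not reported here. The input and the deficient Cxxc1 library were not analysed here.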

Additional observations from a re-analysis of the deposited data

How the results depend on the processing

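No paired analysis was possible because both genotypes were represented by a single library. The regions were recounted under alternative choices, which gave 114 values for 23 results, and 89 of these stayed within the counting interval or within 1.5 times the count. Joining only adjacent windows split the regions and gave 4629 of them, with a median of 0.5 RPM, 41.2% intergenic, 0.756% at Cxxc1 peaks, and 15.6% within 1 kb and 32.1% within 5 kb of a WT peak. Leaving out regions within 1 kb of a WT peak left 0% within 1 kb by construction and 17.1% within 5 kb. Promoters of 5 kb left 2.97% exonic, 47.0% intergenic and 19.1% within 5 kb of a WT peak. Promoters of every gene type left 0% at other start sites by construction. The stronger 50% of the deficient list gave 575 regions with a median of 2.3 RPM, 28.7% within 5 kb of a WT peak, and 62.1% of those in genes at a gene with a WT promoter peak. Looser islands (200 bp, 50% GC, ratio 0.6) were met by 23.2% of the regions, and Cxxc1 peaks within 1 kb by 2.15%. With the gene body alone the B cell and H3K4 methylation lists each had 0 genes with a region. With 50 kb upstream the early thymocyte list had 2, the erythroid list 1, the receptor signalling list 5, the H3K4 methylation list 3 and all coding genes 1509. Where the construction does not show it, the cause was not tested.

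Depth limits every value: at about 19 tags a region, counting error alone is wide, the WT signal at these places is unknown, and with 1 library per genotype a difference between libraries cannot be told apart from one between genotypes. Which places were listed depended on the caller's threshold and controls, and no alternative to them could be run.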
